A study of Mus musculus with 27 samples.

Results

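Levels of H3K27ac, the histone acetylation that marks active promoters and enhancers, were set against the binding sites of 3 regulators in Kupffer cells of mice on a NASH diet. The diet models non-alcoholic steatohepatitis, a fatty and inflamed liver. The regions were all 70300 windows of open chromatin for which the authors deposited an H3K27ac value, of which 20722 lay within 1000 bp of a transcription start site (promoter windows), 49568 lay farther away (distal windows) and 10 had no distance and were left out of both. A window was counted as occupied by LXR, ATF3 or P300 when it shared at least 1 bp with a site of that factor's NASH list. No threshold on H3K27ac entered the choice of windows.

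The NASH group held 8 of the 27 samples of the series, 2 libraries each of H3K27ac, LXR, ATF3 and P300. The control-diet group held 2 H3K27ac libraries and the same 3 factors. All came from macrophages of C57BL/6J mice sorted from the liver as Tim4-positive cells with high F4/80, the surface phenotype of resident Kupffer cells. The inputs (10 samples) and a peritoneal macrophage library were left aside, not analysed here. The labels do not state whether replicate libraries came from different animals, so their spread may be technical. Each factor had 1 NASH site list made from both libraries, so occupancy has no replicate of its own, and the header of the ATF3 list gives no threshold. The NASH lists of LXR and P300 are headed by a diet name that differs from that of the 20-week open-chromatin list, so the time on the diet may differ between these measurements.

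LXR (the receptors LXRα and LXRβ) is a nuclear receptor that senses oxysterols, pairs with RXR and drives genes of cholesterol export and lipid synthesis, and it is needed for Kupffer cell identity. ATF3 is a stress-induced factor of the ATF and AP-1 family that binds AP-1 and CRE motifs and can activate or repress. P300 is an acetyltransferase that deposits H3K27ac at enhancers and promoters to which transcription factors recruit it. The mark itself sits on nucleosomes, whereas factors bind the open DNA between them.

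Promoters could be shown with their sequence. Of 32817 RefSeq promoters (250 bases before to 50 after a start, build GRCm38.p6, the assembly of mm10), 11120 shared bases with 9253 of the promoter windows. The LXR direct repeat, searched on both strands as GGTNA, 4 bases of any kind and AGGTCA, stood in 3 of them (0.027%), against 0.067% of all 32817. Each of the 3 lay in a window with sites of LXR, ATF3 and P300, as did 3484 of the 11120. So few promoters set no relation between the repeat and the sites. The 3 promoters are printed 5′ to 3′ on the strand of the gene with that repeat, the AP-1 letters TGANTCA and the Sp/KLF letters GGGCGG in capitals. The promoter of Itgax, which encodes the integrin CD11c of activated macrophages, is shown as a window with all 3 sites whose H3K27ac was higher under the NASH diet. The first 3 were chosen after the search for the repeat, the last one belongs to a fixed list of loci.
AU019990 (chr2:132597946-132598245, + strand): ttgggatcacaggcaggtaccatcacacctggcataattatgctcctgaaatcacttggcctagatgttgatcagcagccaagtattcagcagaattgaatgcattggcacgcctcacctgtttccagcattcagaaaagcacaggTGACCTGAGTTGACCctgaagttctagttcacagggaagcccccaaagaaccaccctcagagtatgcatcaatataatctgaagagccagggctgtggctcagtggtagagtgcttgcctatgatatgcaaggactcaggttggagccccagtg
Tmco4 (chr4:138972033-138972332, + strand): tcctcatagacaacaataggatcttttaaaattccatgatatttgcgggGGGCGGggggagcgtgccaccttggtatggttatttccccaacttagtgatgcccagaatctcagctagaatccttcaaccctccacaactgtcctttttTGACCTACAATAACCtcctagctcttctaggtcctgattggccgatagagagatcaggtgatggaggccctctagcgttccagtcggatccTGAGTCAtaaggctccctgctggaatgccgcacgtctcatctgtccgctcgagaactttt
Hirip3 (chr7:126861722-126862021, + strand): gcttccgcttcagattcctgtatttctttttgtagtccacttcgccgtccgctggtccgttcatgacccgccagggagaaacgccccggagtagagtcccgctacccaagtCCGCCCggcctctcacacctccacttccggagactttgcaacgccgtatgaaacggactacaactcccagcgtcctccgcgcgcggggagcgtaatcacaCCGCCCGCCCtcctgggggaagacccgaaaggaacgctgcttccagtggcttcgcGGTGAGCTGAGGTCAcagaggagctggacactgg
Itgax (chr7:128129300-128129599, + strand): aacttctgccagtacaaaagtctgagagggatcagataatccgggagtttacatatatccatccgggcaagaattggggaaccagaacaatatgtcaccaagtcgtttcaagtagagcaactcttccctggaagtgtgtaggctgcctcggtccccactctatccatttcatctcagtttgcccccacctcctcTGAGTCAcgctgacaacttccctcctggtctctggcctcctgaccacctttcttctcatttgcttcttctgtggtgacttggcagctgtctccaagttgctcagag

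H3K27ac was read at these promoters in both NASH libraries. The Tmco4 window held 73.1 and 59.8 normalised tags (each library brought to 10000000 tags by the authors) with an LXR site score of 113. The Hirip3 window held 33.6 and 29.6 normalised tags with an LXR score of 56. The AU019990 window held 20.3 and 33.8 normalised tags with an LXR score of 114. All 6 of these values were above the median of promoter windows, 11.2 and 9.36 normalised tags in the 2 libraries, and the LXR scores of AU019990 and Tmco4 lay in the highest quintile of promoter windows, which began at 73.

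The NASH libraries held 18749728 and 19231109 tags, of which 8.61% and 7.91% fell in the windows, a median of 8 tags per window in each. The control libraries held 9468035 and 22615879 tags. In the NASH libraries a single tag was worth 0.533 and 0.520 normalised tags, and 10.9% and 10.8% of windows had none. Across all windows the 2 NASH libraries had a Spearman correlation of 0.890, with 0.942 at promoters and 0.839 at distal windows. One satellite repeat on chromosome 2 (98667086 to 98667288, nearest gene Lrrc4c) held 4.02% and 5.17% of all tags in windows, so medians were used, and the distal means given below are shown with and without it. The lists of regulators were large: 51709 LXR, 38828 ATF3 and 52628 P300 sites, of which 77.6%, 75.6% and 78.0% lay in a window. Of 29 genes of Kupffer cell identity, 28 had a distal window and 26 a promoter window. Distal windows were found for 7 of 10 endothelial, 7 of 10 neutrophil and monocyte, 5 of 10 hepatocyte, 5 of 8 B cell, 4 of 10 T and NK cell and 3 of 10 stellate cell markers. Promoter windows were found for 4 of the neutrophil and monocyte, 2 of the endothelial, 2 of the stellate cell, 1 of the hepatocyte, 1 of the B cell and none of the T and NK cell markers. The windows of Timd4, which encodes the Tim4 of the sort, had a low median of 0.80 normalised tags in the NASH libraries, and those of Clec4f, a lectin of Kupffer cells, a median of 6.04. In such bulk samples fewer cells of a type and less of the mark per cell cannot be told apart.

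Windows with a site of any of the 3 factors held more H3K27ac than windows without one, by a wide margin at distal windows and a narrow one at promoters. Distal windows with a P300 site had a median of 4.80 and 4.68 normalised tags in the 2 NASH libraries, against 1.60 and 1.56 in distal windows without one. Distal windows with an LXR site had 4.27 and 4.16 normalised tags, against 1.60 and 1.56 without one. Those with an ATF3 site had 4.80 and 4.16 normalised tags, against 2.13 and 2.08 without one. In each library every distal median with a site was at least 2.00 times the one without. At promoters the medians were 12.3 and 10.9 normalised tags with a P300 site, against 8.53 and 7.28 without one. They were 13.3 and 11.96 with an ATF3 site, against 9.60 and 8.32 without one, and 11.7 and 10.4 with an LXR site, against 9.60 and 7.80 without one.

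Given as a gap, the difference of the medians of log2(value + 1) of windows with and without a site, the distal values were 1.25 for P300, 1.03 for LXR and 0.94 for ATF3 on the mean of both libraries. The promoter values were 0.51 for P300, 0.42 for ATF3 and 0.31 for LXR. The 2 libraries differed in their gaps by an SD of 0.077 or less for 5 of the 6 gaps and of 0.103 for distal ATF3. Windows are not replicates of a condition and no test was made of these gaps. At distal windows 82.5% of those with a P300 site lay above the median of those without one, and at promoters 63.7% did. A limit set on the level itself removes the lowest windows, and under it 4 of the 6 gaps changed sign. Among windows with at least 10 tags over the libraries used, the gap was −0.24 for LXR and −0.18 for P300 at promoters and −0.05 for LXR and −0.04 for ATF3 at distal windows, while it was 0.048 for ATF3 at promoters and 0.044 for P300 at distal windows.

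The shape of the distributions shows the same. The lowest windows differed most: the 10th percentile of promoter windows was 2.60 normalised tags with a P300 site and 0.52 without one, and the 25th percentile was 5.28 and 1.84. At the 75th percentile the 2 kinds of promoter window were alike, 24.2 with a P300 site and 23.7 without one. At the 90th percentile the order was turned, 44.0 with a P300 site and 50.3 without one. For LXR the turn came earlier, with a 75th percentile of 22.96 normalised tags with a site and 25.3 without one, and the mean was 18.1 with a site and 19.0 without one. Distal windows kept a gap to higher levels. Their 90th percentile was 21.4 with a P300 site and 15.3 without one, and 20.7 with an LXR site and 17.4 without one. At the 95th percentile the distal LXR groups were level, at 30.8 and 30.6. The distal means for ATF3 were 8.57 with a site and 9.21 without one, and 8.57 and 7.76 once the satellite window was left out.

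At distal windows the combinations with P300 stood above those without it. The 18405 distal windows with all 3 sites had medians of 5.33 and 4.68 normalised tags in the 2 NASH libraries. Those with LXR and P300 had 4.27 and 3.64, those with ATF3 and P300 3.73 and 3.64, and those with P300 alone 3.73 and 3.12. These 3 last combinations differ by single tags. All 4 combinations that held P300 were above the 3 that held LXR or ATF3 without it. These had 2.67 and 2.60 for LXR and ATF3 together, 2.13 and 2.08 for LXR alone and 1.60 and 1.56 for ATF3 alone. The 13394 distal windows without any site had 1.07 and 1.04 normalised tags, which is 2 tags in each library. The medians of ATF3 alone and LXR alone differ by a single tag. So do those of P300 alone and of LXR with ATF3 in NASH replicate 2, 3.12 and 2.60.

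At promoters the order was another. The highest median belonged to the 498 windows with ATF3 and P300 but no LXR site, at 16.0 and 14.0 normalised tags. Windows with all 3 sites had 13.3 and 11.96, and those with P300 alone 12.8 and 10.9. Windows with ATF3 alone had 12.8 and 10.1, and the 395 with LXR and ATF3 had 11.2 and 10.9. The library values of all 3 sites, P300 alone and ATF3 alone overlap, while those of LXR with ATF3 lie below those of all 3 sites. The 4631 windows with LXR and P300 had 10.7 and 9.36 and those with LXR alone 9.60 and 8.32. The 6674 promoter windows without a site had 7.47 and 6.76 normalised tags, the lowest median. Yet over 20 normalised tags were held by 32.6% of promoter windows with all 3 sites and by 28.0% of those without a site.

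**Figure D1:**
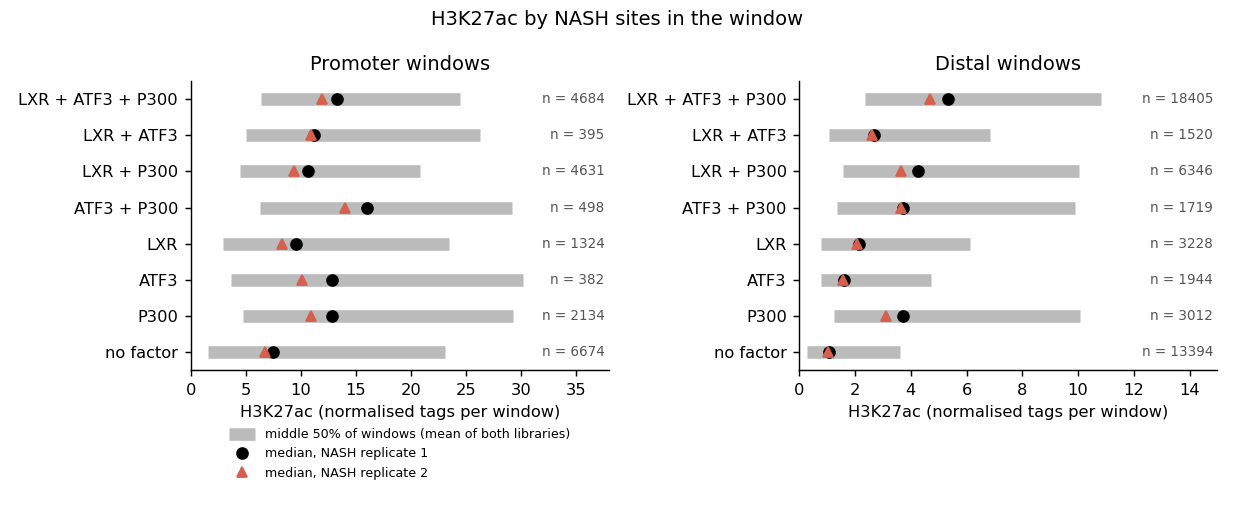
H3K27ac in normalised tags per window (horizontal axis) for the 8 combinations of NASH sites (rows), at promoter windows (left) and distal windows (right); grey bars span the middle 50% of windows on the mean of both libraries, the circle and the triangle are the medians of NASH replicates 1 and 2. Distal medians lie between 5.33 for all 3 sites and 1.04 for none, and the highest promoter median is that of ATF3 with P300.

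Each site was also compared within windows that held the same other sites. A P300 site went with a higher level in every such comparison. At distal windows the gap was 1.10 where neither LXR nor ATF3 was bound (medians 3.42 with P300, 1.06 without), 0.68 beside LXR, 0.66 beside ATF3 and 0.78 beside both. At promoters it was 0.67 beside neither, 0.37 beside ATF3 and 0.15 beside LXR and beside both. An ATF3 site had positive gaps at promoters, 0.66 beside neither of the others, 0.36 beside P300, 0.31 beside LXR and 0.31 beside LXR and P300. At distal windows these ATF3 gaps were 0.46, 0.01, 0.18 and 0.29, and beside P300 alone the gaps of the 2 libraries were 0.00 and 0.17.

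An LXR site was the exception. At distal windows its gap was positive in all 4 settings, 0.59 beside neither of the others, 0.16 beside P300, 0.31 beside ATF3 and 0.43 beside both. At promoters it was 0.30 beside neither, but promoter windows with P300 had a median of 10.0 normalised tags when LXR was also bound and 11.8 when it was not, a gap of −0.22. With ATF3 and P300 in place the medians were 12.7 with LXR and 15.5 without it, a gap of −0.27. Both NASH libraries gave negative gaps in these 2 settings. Among promoter windows on the 20-week open-chromatin list, a subset taken after the data had been seen, these gaps were −0.19 and −0.21. Beside ATF3 alone the 2 libraries differed in sign, −0.18 and 0.10. The windows compared differed in accessibility too: the authors' open-chromatin score had a median of 43.2 for promoters with LXR and P300 and 26.4 for those with P300 alone. They differed in position as well: the median distance to a start was 70 bp with LXR and P300 and 138.5 bp with P300 alone. With ATF3 and P300 in place it was 78 bp with LXR and 104 bp without it. The part of accessibility and of position in the result was not tested.

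Occupancy was also read by level, and it did not keep increasing with it. Promoter windows were split into deciles of H3K27ac level. P300 sites were in 20.1% of windows of the lowest decile, 69.0% of the fifth and 51.9% of the highest. LXR sites were in 21.5%, 63.8% and 45.2% of the same deciles, and ATF3 sites in 7.67%, 34.0% and 25.8%. Promoter windows without any site made up 70.6% of the lowest decile, 21.8% of the fifth and 35.5% of the highest. The share without a site was therefore higher among the most acetylated promoter windows than among the middle ones.

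At distal windows each factor's share was highest in the eighth decile, as it was for ATF3 at promoters (36.9%). P300 sites were in 20.3% of the lowest decile, 78.1% of the eighth and 68.2% of the highest, which began at 19.7 normalised tags. LXR sites were in 25.0%, 75.6% and 64.6%, and ATF3 sites in 17.3%, 62.7% and 50.9% of these deciles. All 3 sites together were in 8.43% of the lowest decile, 54.3% of the eighth and 40.4% of the highest. Windows without a site made up 64.1%, 12.4% and 20.0%. The share of all 3 factors was lower in the highest decile than in the ninth, at both kinds of window. At promoters the LXR and P300 shares declined in every decile after the fifth.

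**Figure D2:**
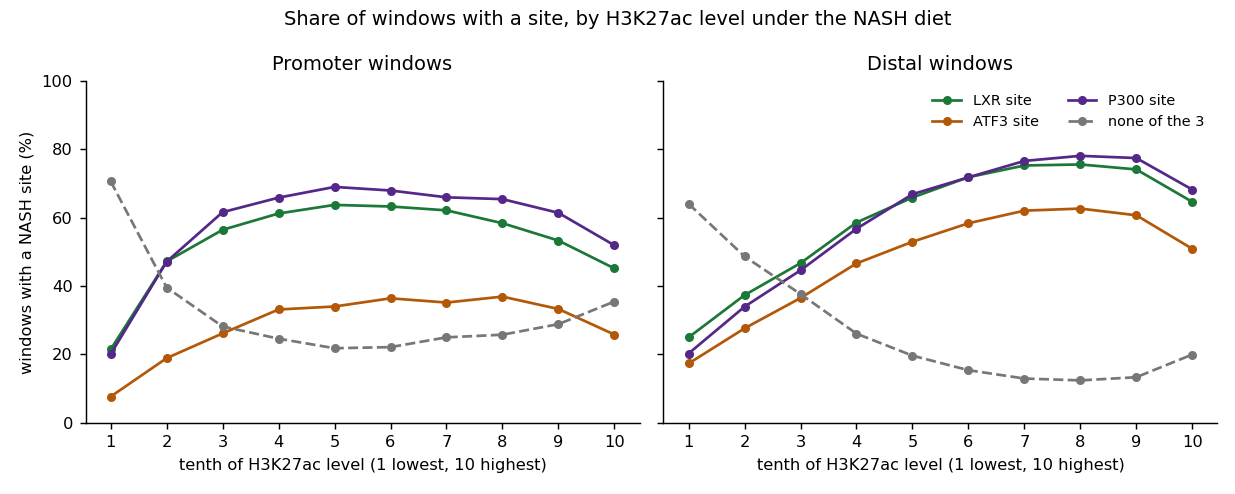
Share of windows with a NASH site of each factor, in percent (vertical axis), over deciles of the mean NASH H3K27ac level (horizontal axis, 1 lowest, 10 highest), at promoter windows (left) and distal windows (right); the dashed line is the share with none of the 3. At promoters the LXR and P300 shares are highest in the fifth decile and decline after it, while the promoter ATF3 share and all distal shares are highest in the eighth. In the highest decile 35.5% of promoter and 20.0% of distal windows have no site.

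The highly acetylated windows without a site lay next to sites. Of the 735 promoter windows without a site in the highest decile, 99.0% had a site of at least 1 factor within 1000 bp, at a median distance of 120 bp. In the lowest decile 16.8% did. Of the 990 such distal windows in the highest decile, 97.7% had a site within 1000 bp, at a median distance of 138 bp, against 6.20% in the lowest decile. Among windows without a site, the level declined with the distance to the nearest one.

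Distal windows without a site that lay 1 to 100 bp from one had medians of 13.3 and 11.7 normalised tags in the 2 libraries. Over 100 to 250 bp the medians were 10.7 and 10.4, over 250 to 500 bp 4.80 and 4.68, and over 500 to 1000 bp 2.67 and 2.60. Beyond 20000 bp they were 0.53 and 0.52, a single tag. The nearest 2 groups were above the distal windows with all 3 sites, at 5.33 and 4.68. Promoter windows had 26.7 and 22.4 normalised tags at 1 to 100 bp and 19.7 and 16.6 over 100 to 250 bp, against 13.3 and 11.96 in promoter windows with all 3 sites. Over 1000 to 5000 bp the promoter medians were 1.33 and 1.04. Of promoter windows without a site 69.6% lay within 1000 bp of one, and of distal windows 32.7%. Set side by side, distal windows without a site had a median of 6.06 normalised tags within 1000 bp of one and 0.54 farther away, while windows with all 3 sites had 5.02.

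**Figure D3:**
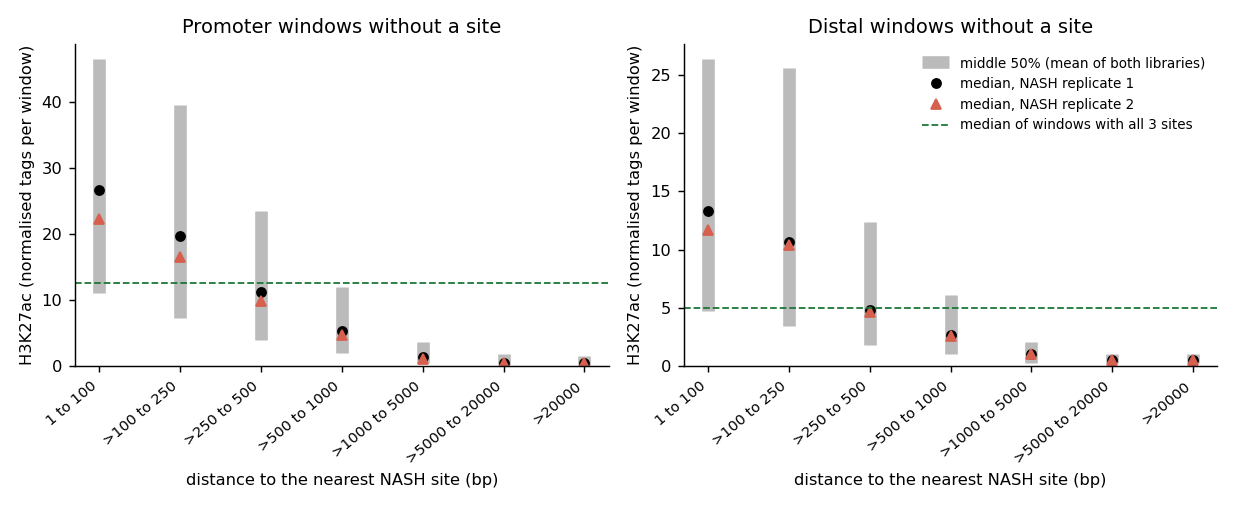
H3K27ac in normalised tags (vertical axis) of windows without any NASH site, by distance in bp to the nearest site (horizontal axis), at promoter windows (left) and distal windows (right); grey bars span the middle 50% of windows, circles and triangles are the medians of NASH replicates 1 and 2, and the dashed line is the median of windows with all 3 sites. The groups within 250 bp of a site lie above that line and those beyond 500 bp below it.

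Position around the start site ordered the promoter windows in the same way. Occupancy was high at and just upstream of the start. At 100 to 250 bp upstream 72.2% of windows held P300, 69.6% LXR and 39.5% ATF3, and of the 8930 windows centred within 100 bp of the start 75.4% held P300, 68.7% LXR and 36.1% ATF3, with 16.8% that held none. In the 2902 windows at 250 to 500 bp downstream the shares were 28.9%, 27.8% and 11.9%, and 59.2% held none. H3K27ac ran the opposite way. Its median was 9.07 and 7.80 normalised tags within 100 bp of the start, 5.87 and 5.20 at 100 to 250 bp upstream and 21.3 and 18.2 at 250 to 500 bp downstream. The most acetylated promoter positions were thus the least occupied.

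Within a position the gaps of the factors were mostly, but not always, wider than over all promoter windows: at 6 of 7 positions for LXR and at 5 of 7 for ATF3 and P300. Within 100 bp of the start the median was 10.3 normalised tags with a P300 site and 2.64 without one, a gap of 1.63, against 0.51 over all promoter windows. The LXR gap was 1.11 there, with medians of 10.2 with a site and 4.21 without one, and the ATF3 gap was 0.81. The P300 gap was narrower off the start, 0.42 at 250 to 500 bp downstream (24.2 with a site, 17.9 without) and 0.41 at 250 to 500 bp upstream (14.7 and 10.8). At all 7 positions and for all 3 factors, the gap was positive in both NASH libraries. Windows without a P300 site at 250 to 500 bp downstream had more H3K27ac than windows with one over the start, with medians of 17.9 and 10.3 normalised tags.

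**Figure D4:**
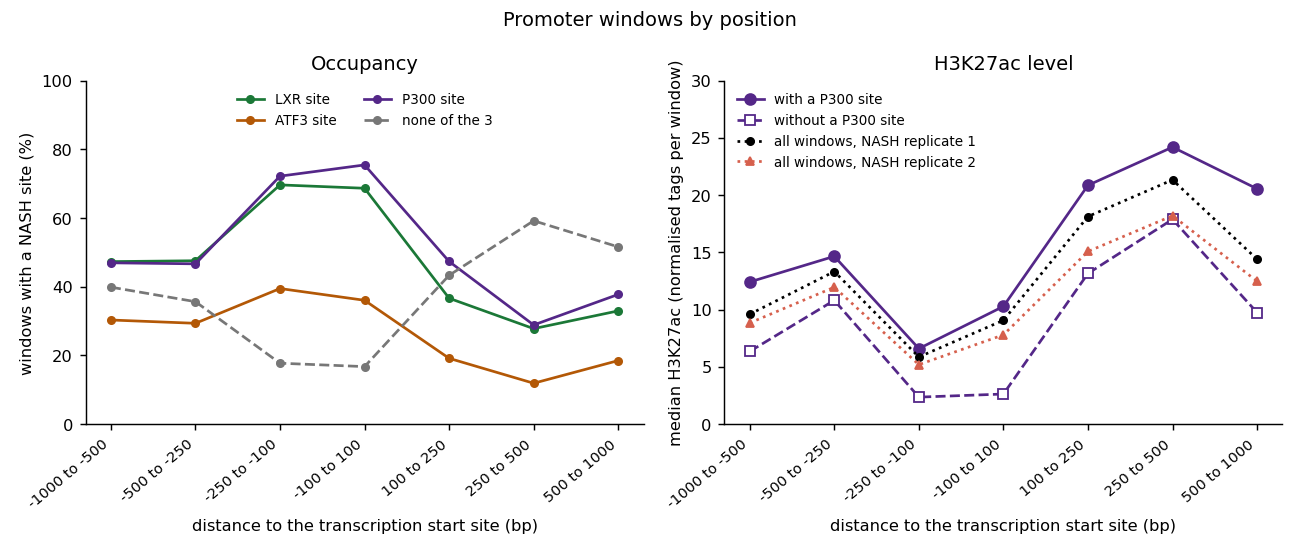
Promoter windows by distance in bp to the transcription start site (horizontal axis, upstream negative): on the left the share of windows with a NASH site of each factor or of none, in percent, and on the right the median H3K27ac in normalised tags with and without a P300 site (mean of both libraries) and over all windows in NASH replicates 1 and 2. The P300 share is highest within 100 bp of the start, at 75.4%, the LXR and ATF3 shares are highest at 100 to 250 bp upstream, and H3K27ac is highest at 250 to 500 bp downstream.

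For LXR and P300 the authors' lists give a score per site, the authors' own enrichment value, used here to rank sites within a list. In distal windows with a P300 site, the Spearman correlation of the highest P300 score with H3K27ac was 0.35 over 29482 windows, and 0.33 and 0.34 in the single libraries. For LXR it was 0.27 over 29499 windows. At promoters it was 0.20 for P300 over 11947 windows and 0.11 for LXR over 11034. These correlations run across windows that share libraries, so they are descriptions. Both scores also followed the openness of the window, with correlations of 0.50 (P300) and 0.44 (LXR) with the open-chromatin score at distal windows, and each other, with 0.70 at distal windows and 0.52 at promoters.

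By quintiles of the score, the lowest quintile of distal P300 sites had medians of 2.13 and 2.08 normalised tags and the highest quintile 8.53 and 7.80, which is above every quintile of the distal LXR score. The lowest quintile of distal LXR sites had 2.67 and 2.60 and the highest 6.93 and 6.76. At promoters the P300 quintiles ran from 8.53 and 7.80 at the lowest scores to 17.1 and 15.1 at the highest, and the LXR quintiles from 10.1 and 8.84 to 14.4 and 12.5. Co-occupancy moved with the score: all 3 factors shared 25.0% of windows in the lowest quintile of distal P300 sites and 93.0% in the highest. Within windows that held all 3 sites the P300 correlation was still 0.35 at distal windows and 0.22 at promoters, and that of LXR was 0.24 and 0.07. P300 alone gave 0.34 at distal windows and 0.22 at promoters.

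**Figure D5:**
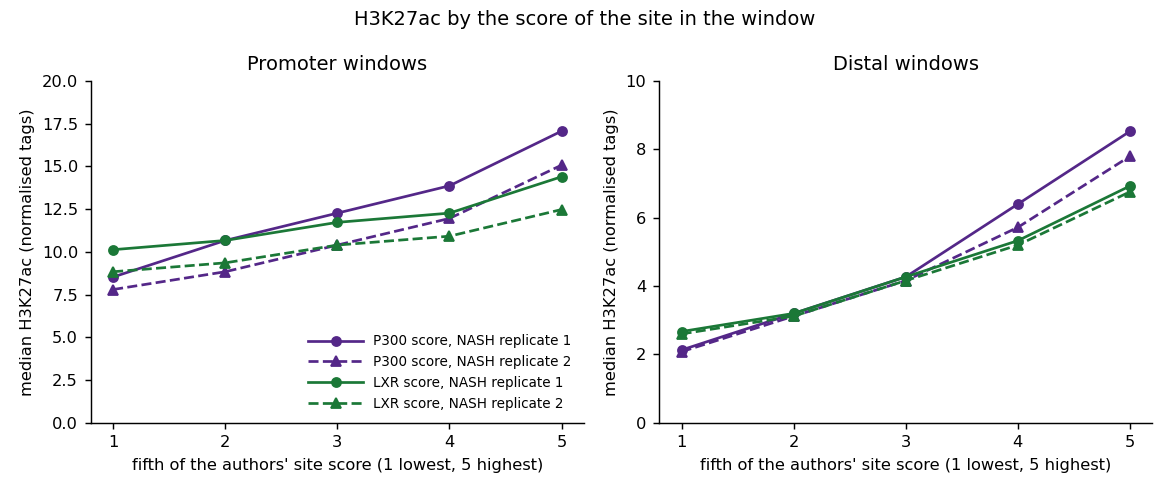
Median H3K27ac in normalised tags (vertical axis) by quintile of the authors' score of the site in the window (horizontal axis, 1 lowest, 5 highest), for P300 and LXR in each NASH library, at promoter windows (left) and distal windows (right). All lines climb. Those of P300 run from 2.13 and 2.08 to 8.53 and 7.80 at distal windows and from 8.53 and 7.80 to 17.1 and 15.1 at promoters.

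The relation was held against other properties of the windows. Over quintiles of the open-chromatin score, the distal gap of P300 lay between 0.93 and 1.14, that of LXR between 0.73 and 0.95 and that of ATF3 between 0.36 and 0.67, so each was positive within every quintile. At promoters the P300 gap lay between 0.35 and 0.99, the LXR gap between 0.08 and 0.45. Over quintiles of the CpG count of the 11120 RefSeq promoters, the P300 gap lay between 1.19 and 1.53 and the LXR gap between 0.79 and 1.15, while the median level itself varied little, between 7.90 and 8.70 normalised tags. Farther from a gene the level was lower in occupied windows too. Windows with all 3 sites had a median of 6.38 normalised tags at over 1 to 10 kb from a start, 4.76 at over 10 to 100 kb and 3.17 beyond 100 kb, and the P300 gap was 1.31, 1.18 and 1.02.

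The windows came from 2 open-chromatin lists, and the relation differed with the list. In the 15013 promoter windows on both lists the medians were 12.9 normalised tags with all 3 sites and 7.11 with none. In the 1151 promoter windows on the 20-week list alone they were 9.24 and 12.7, the opposite order, and the ATF3 gap there was −0.31, while the gaps of P300 and LXR were 0.40 and 0.13. All 3 sites were in 7.91% of these windows and none in 60.6%. In the 5684 distal windows on the 20-week list alone, 50.4% held ATF3, 40.7% LXR and 39.9% P300, and of the 3 groups of distal windows by list this was the one in which ATF3 was the most frequent factor. Their gaps were 0.13 for ATF3, 0.47 for LXR and 0.48 for P300, against 0.70, 1.01 and 1.15 in the 28650 distal windows on both lists.

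The same relation was computed in the control libraries. At the NASH sites, the P300 gap at distal windows was 1.16 and 1.15 in the NASH libraries and 1.24 and 1.33 in the control libraries. The ATF3 gap at promoters was 0.44 and 0.48 in the NASH libraries and 0.18 and 0.38 in the control libraries. These were the 2 of 6 gaps whose diets did not overlap. With each diet's own sites, 5 of 6 did not overlap. There, the distal LXR gap was 1.02 and 1.01 under NASH and 1.24 and 1.19 under control, and the promoter ATF3 gap 0.44 and 0.48 under NASH and 0.09 and 0.29 under control. With 2 libraries per diet the smallest p of the two-sided exact permutation test is 0.33, so no difference could pass a threshold of 0.05. Over the 12 tests the smallest exact adjusted p was 0.571. A positive gap between windows with and without NASH sites was present in control libraries as well, in all 6 comparisons.

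The change of H3K27ac with the diet was then read by the occupancy of the window. limma, fitted over 35947 windows with Benjamini-Hochberg adjustment, called 720 windows raised (2.00% of those tested) and 1651 lowered (4.59%) where the adjusted p was under 0.05 and the log2 change had a size of 1 or more. The median change over all tested windows was −0.26 on the authors' scaling and −0.00 with TMM factors, a scaling by which 1191 were raised (3.31%) and 902 lowered (2.51%). Changes of single windows below are therefore given relative to that median, while the adjusted p tests the change before the subtraction. Distal windows without a site had the most lowered windows: 110 of 3252 tested were raised (3.38%) and 463 lowered (14.2%). Of the 10015 tested distal windows with all 3 sites, 251 were raised (2.51%) and 234 lowered (2.34%).

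Distal windows with ATF3 but not both other factors had the largest raised shares. Of 735 tested with ATF3 and P300, 46 were raised (6.26%) and 26 lowered (3.54%). Of 477 with ATF3 alone, 29 were raised (6.08%) and 24 lowered (5.03%), and of 513 with LXR and ATF3, 30 were raised (5.85%) and 19 lowered (3.70%). In the combinations without ATF3 the lowered windows outnumbered the raised, 217 lowered and 45 raised of 3167 with LXR and P300, 102 and 43 of 1394 with P300 alone, and 118 and 27 of 1142 with LXR alone. With TMM factors the counts for ATF3 and P300 were 66 raised and 15 lowered, and for no site 180 raised and 315 lowered, while all 3 sites had 384 raised and 110 lowered, so the balance within a combination moves with the scaling. It moves with single libraries too. Without NASH replicate 1 the counts were 52 raised and 192 lowered for all 3 sites, and 8 raised and 18 lowered for ATF3 with P300. Without NASH replicate 2 they were 43 and 79 for all 3 sites, and 7 and 10 for ATF3 with P300. The excess of raised windows in the ATF3 combinations was therefore not seen without either NASH library. Promoters had 139 raised (0.912%) and 448 lowered (2.94%) of 15245 tested, and the 275 tested windows with ATF3 alone had the largest raised share, 11 windows (4.00%). The site lists and the acetylation come from the same diet, and the share of windows that could be tested ran from 24.3% without a site to 54.4% with all 3 at distal windows.

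Single windows show how far level and occupancy can part. Among promoter windows with all 3 sites, that of Zc3hav1, an antiviral zinc-finger protein, was highest, with 220.8 and 230.9 normalised tags, an LXR score of 61 and a P300 score of 91. The second, at Pisd-ps3, lies on an unplaced scaffold near a repeated pseudogene and is uncertain. Yet the highest promoter windows without any site exceeded it: an intronic window of Clk1, a splicing kinase (chromosome 1, 58423478 to 58423803), held 258.7 and 297.4 normalised tags and lay 77 bp from the nearest site. A window of Rab1a, a small GTPase of vesicle transport, 435 bp downstream of its start, held 285.9 and 222.6 and lay 127 bp from a site. Windows with 1 factor reached similar levels. Tmbim6, an inhibitor of cell death, had 248.0 and 212.2 with LXR alone, Napa, an adaptor of vesicle fusion, had 210.7 and 197.6 with ATF3 alone, and Btg1, an antiproliferative factor, had 194.1 and 202.3 with P300 alone.

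The highest distal window with all 3 sites was in an intron of Slc8b1, the mitochondrial sodium and calcium exchanger, with 226.1 and 229.3 normalised tags. An intergenic window near Ccr1, a chemokine receptor of monocytes, held 196.8 and 171.6 with ATF3 alone. The window of highest level without a site, apart from a satellite neighbour near Lrrc4c with 1344.5 and 1739.9, was that near Zfp36, which encodes the mRNA-decay factor tristetraprolin, with 185.6 and 182.5 normalised tags, 113 bp from a site. The highest scores stood at windows of very different levels, all within the highest distal decile, which began at 19.7 normalised tags. The satellite window carried both the highest LXR score, 1094, and the highest P300 score, 1688. The window of Rn45s, a ribosomal RNA repeat, had scores of 604 and 360 with 25.1 and 31.7 normalised tags. The third LXR score, 518, was near Mdm1, with 67.2 and 59.8 normalised tags.

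Some windows had every site and no acetylation. Of the 18405 distal windows with all 3 sites, 172 had no tag in either NASH library, and of the 4684 promoter windows 6 did. In an intron of Ece1, an endothelin-converting enzyme (chromosome 4, 137871524 to 137871724), the LXR score was 321 and the P300 score 211, and both NASH libraries had 0 tags, which allows up to 1.60 and 1.56 normalised tags. Slc12a8, a membrane transporter, had an intronic window with an LXR score of 169, and Chst15, a sulfotransferase, an intergenic one with an LXR score of 145, again with 0 tags in both NASH libraries. The control libraries held 3.17 and 0.00 normalised tags at Ece1, 2.11 and 1.33 at Slc12a8 and 7.39 and 0.88 at Chst15. Values so low are within a few tags of 0 and set no difference between the diets.

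Genes of LXR biology had occupied but not uniformly acetylated loci. Abca1, the cholesterol exporter that LXR induces, had 33 windows, 24 with LXR and 17 with all 3 sites, yet its highest window (chromosome 4, 53159228 to 53159498, 532 bp from the start) held none, with 202.1 and 170.0 normalised tags and the nearest site 239 bp away. At Abcg1, its partner in cholesterol export, 17 of 19 windows held LXR, and the highest held LXR alone, with 100.3 and 103.0. The highest window of Srebf1, the master regulator of fatty acid synthesis, held all 3 sites, with 84.8 and 110.2. At Scd2, a stearoyl-CoA desaturase, all 6 windows held LXR and P300. The highest, a distal window with an LXR score of 315, held 22.4 and 15.6 normalised tags. Its mean of 19 lay in the ninth distal decile, which ran from 10.8 to 19.7. The highest windows of these 4 genes did not pass between the diets by limma, with adjusted p-values of 0.180 (Abca1), 0.539 (Abcg1), 0.672 (Srebf1) and 0.963 (Scd2). A lower window of Abca1 was called raised, but it entered the fit through the NASH group, in which it was high, as given below with the gene lists.

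Genes of Kupffer cell identity differed in occupancy. Cd5l, a secreted scavenger-family protein, had 18 windows, of which 13 held LXR and 16 P300, and 11 held all 3. Slc40a1, the iron exporter ferroportin, had P300 in 22 of 23 windows, and its highest window held all 3 sites with 52.8 and 35.9 normalised tags. Clec4f had P300 in 14 of 17 windows. Timd4 stood apart, with P300 in 1 of its 21 windows, LXR in 4 and no site in 15. The highest NASH window of Timd4 held 3.73 and 5.20 normalised tags in NASH libraries and 23.2 and 20.8 in control libraries. It was lower under NASH by 1.83 on the log2 scale relative to the median (SE 0.43). This window entered the fit through the control group, in which it was high, so no p is given. Its nearest NASH site was 3243 bp away.

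At genes of lipid- and scar-associated macrophages the highest NASH window was occupied for Itgax, Gpnmb, Spp1 and Trem2 and held no site for Cd9. Since each such window was chosen for its level in the NASH libraries, the choice favours a higher level under NASH, and the adjusted p-values of these windows are to be read with that. The promoter window of Itgax printed above held 44.8 and 33.3 normalised tags in NASH libraries and 6.34 and 3.54 in control libraries. It was higher under NASH by 3.04 relative to the median (SE 0.40), and it carried all 3 sites, with LXR and P300 scores of 62 and 64. Gpnmb, a glycoprotein of lipid-laden macrophages, had a P300 site alone in its highest window, with 41.1 and 39.0 normalised tags in NASH libraries and 2.11 and 1.33 in control libraries. The highest window of Spp1, which encodes osteopontin, held LXR and ATF3 but no P300, with 23.5 and 15.1 in NASH libraries and 0.00 and 0.44 in control libraries. These windows of Itgax, Gpnmb and Spp1 had few tags in control libraries. They entered the fit through the group in which they were high, so no p is given for them. At Trem2, a lipid-sensing receptor, all 3 windows held all 3 sites. The highest held 13.3 and 11.96 in NASH libraries and 2.11 and 6.63 in control libraries. It entered the fit in the same way and did not pass (limma adjusted p = 0.0931). Cd9, a tetraspanin, rose at an intronic window without any site, 18 bp from one, with 45.9 and 44.7 in NASH libraries and 21.1 and 21.2 in control libraries (limma adjusted p = 0.0294), a call lost without NASH replicate 1 (0.146) or NASH replicate 2 (0.198).

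Stress and inflammatory loci showed each kind of window. The highest window of each of these genes was also chosen for its level in the NASH libraries, which favours a higher level under NASH. The adjusted p-values of these highest windows are to be read with that. The highest window of Atf3 itself (chromosome 1, 191182337 to 191182616) held LXR and P300 but no ATF3 site, with 125.3 and 114.9 normalised tags in NASH libraries and 68.7 and 86.7 in control libraries (limma adjusted p = 0.0887, and 0.0309 with TMM factors). ATF3 sites were in 8 of the 17 windows of that gene. Another promoter window and 2 distal windows of Atf3, all without a site and named here after their values were seen, were raised, the promoter window with 76.3 and 78.0 in NASH libraries and 44.4 and 23.9 in control libraries (limma adjusted p = 0.0144). The 2 distal windows entered the fit through the NASH group, in which they were high. The highest window of Jun, a partner of ATF3 in AP-1, held no site, with 93.3 and 83.7. Tnfaip3, the gene of A20, which restrains NF-κB, had all 3 sites in 13 of 21 windows, but its highest window held none and rose, with 98.1 and 85.3 in NASH libraries and 23.2 and 27.4 in control libraries (limma adjusted p = 0.000531). The nearest site lay 433 bp away. Traf1, a signalling adaptor below tumour necrosis factor receptors, had P300 alone in its highest window. That window held 99.2 and 73.8 in NASH libraries and 4.22 and 9.73 in control libraries. It entered the fit through the NASH group, in which it was high, so no p is given. Spi1, which encodes the macrophage factor PU.1, had ATF3 alone in its highest window, with 58.7 and 47.8. Other inflammatory windows were lowered. Of 41 tested promoter windows of the inflammatory list used below, 1 was raised, at Tnfaip3, and 4 were lowered, at Il6 and Cxcl10. Over all tested promoter windows 0.912% were raised and 2.94% lowered. The 4 lowered distal windows of that list were at Il1b, Il10 and Ccl7. The Ccl7 window and a lowered promoter window of Il6 entered the fit through the control group, in which they were high.

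Over gene lists, chosen with earlier results of these data known, occupancy is given beside that of all genes. All distal windows held LXR in 59.5%, ATF3 in 47.6% and all 3 in 37.1% of cases, and of 20695 tested 581 were raised (2.81%) and 1203 lowered (5.81%), the shares beside which the counts below stand. Distal windows of 21 lipid- and scar-associated genes held ATF3 in 63.0% and all 3 in 53.6% (74 of 138), with 12 of 80 tested raised and 1 lowered, at the protease gene Ctsb. Those of 22 inflammatory NF-κB genes held ATF3 in 60.8% and all 3 in 48.8% (81 of 166), with 8 of 92 tested raised and 4 lowered. Those of 20 AP-1 and ATF factor genes held ATF3 in 47.0% and all 3 in 37.2% (80 of 215), with 3 of 136 tested raised and 11 lowered. Those of 21 LXR target genes held LXR in 66.7% and all 3 in 42.7% (82 of 192), and their median of 8.05 normalised tags compares with 3.14 for all distal windows. Of 122 tested, 5 were raised, 4 of them at Plin2, which coats lipid droplets, and 1 at Abca1, and 3 were lowered, 2 at Ptgs1 and 1 at Scd1. Plin2 is also in the lipid- and scar-associated list, so its 4 windows are counted there too. The Abca1 window held 8.53 and 6.24 normalised tags in NASH libraries and 0.00 and 0.88 in control libraries. It and 1 Plin2 window (14.4 and 5.72, against 0.00 and 1.77) entered the fit through the NASH group. The Ptgs1 windows and the lowered Ctsb window entered it through the control group. An ATF3 site was in all 5 raised and in 2 of the 3 lowered windows. At the highest of the Plin2 windows, with ATF3 alone, the levels were 84.8 and 75.9 normalised tags in NASH libraries and 20.1 and 16.8 in control libraries (limma adjusted p = 0.000293). This window was picked from windows already called, so its p-value adds no support. Distal windows of 29 Kupffer identity genes held all 3 in 36.2% (108 of 298), near the share of all genes, with 34 of 182 tested lowered.

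Within each of these lists distal windows with all 3 sites had the higher median. It was 6.20 normalised tags with all 3 sites and 1.97 in the other windows for Kupffer identity genes, 8.84 and 5.02 for lipid- and scar-associated genes, and 10.1 and 6.56 for LXR targets. For AP-1 and ATF factor genes it was 7.40 and 5.80, for inflammatory genes 6.84 and 4.20, for lineage and signal-dependent factors 6.18 and 3.72, and for housekeeping genes 17.2 and 3.15. At promoters the order held for 2 of these 7 lists. Lineage factors had 20.9 with all 3 sites and 15.1 without, and housekeeping genes had 23.3 and 11.9. LXR target promoters had 16.2 with all 3 sites (16 windows) and 26.3 without (32 of 48), and inflammatory genes had 9.85 and 16.4. Distal windows of the other cell types numbered 39 for endothelial, 22 for stellate cell, 19 for neutrophil and monocyte, 17 for B cell, 13 for hepatocyte, 7 for T and NK cell and 7 for cholangiocyte markers, of which 1 to 10 per list were tested. A window of the T cell gene Cd3d was called raised, with 12.3 and 21.8 normalised tags in NASH libraries and 3.17 and 3.54 in control libraries. It entered the fit through the NASH group, in which it was high, so no p is given. In all 3 called windows of the B cell kinase gene Blk, of 10 B cell windows tested, H3K27ac was lowered, with 2.60 to 6.93 normalised tags in NASH libraries and 18.1 to 30.6 in control libraries. Lowered windows were also found at Cps1 of the hepatocyte list, at Cdh5 and Stab2 of the endothelial list and at Csf3r of the neutrophil and monocyte list. The called windows of Blk, Cps1, Cdh5 and Stab2 entered the fit through the control group, in which they were high. Cdh5 is in the Kupffer identity list as well. The raised window of the cholangiocyte list was that of Spp1 given above, a gene also in the lipid- and scar-associated list. The part of such cells in the results was not tested.

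Motif letters were counted in the 11120 RefSeq promoters. The AP-1 letters TGANTCA stood in 6.80% of promoters with an ATF3 site and 2.99% of those without one, and in 7.81% of all 32817 promoters. The CRE letters TGACGTCA stood in 6.17% with an ATF3 site and 2.20% without one, against 1.79% of all. Promoters with ATF3 alone had the largest AP-1 share, 15.1% (19 of 126). The half-site AGGTCA, which the direct repeat contains, stood in 12.03% with an LXR site and 8.91% without one, against 16.3% of all. The PU.1 letters GAGGAAGT stood in 4.16% with LXR and 1.82% without, against 3.20% of all, and the C/EBP letters TTGCNNAA in 7.89% and 7.12%, against 10.8% of all. The Sp/KLF letters GGGCGG were in 75.8% of promoters with LXR and P300, 66.1% of those with no site and 35.6% of all. A match describes letters, not binding, and the median GC content was 60.7% in promoters with an ATF3 site and 63.3% in those without.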

How the data were processed

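H3K27ac tags per window were counted by HOMER on mm10 and scaled to 10000000 tags per library, a normalised signal, per the file headers. Bowtie2 and HOMER are named in the submitters' processing notes without versions. The factor lists hold sites reproducible over 2 libraries for LXR and P300 (IDR threshold of 0.05, per the file headers), with the authors' score per site. For ATF3 the deposited list has no column names, no threshold is given, and its last number was not used as a score. The open-chromatin score is the deposited peak score of the window.

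Values times library total gave whole tags within 0.02 for 100% of values, so tags were recovered. Windows were joined to sites by an overlap of at least 1 bp. Gaps used medians of log2(value + 1). Diets were compared by limma 3.58.1 (trend) on log2(value + 1) after edgeR's filterByExpr on the recovered tags, with Benjamini-Hochberg adjustment. edgeR 4.0.16 and DESeq2 1.42.0 on recovered tags were alternatives. This count test was not the main one because the deposited unit is a scaled signal. The gap computation and the limma fit were tested on simulated data. The median of 8 tags per window limits precision, and floors of 3 tags cover counting error only.

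Named windows were the 2 highest per occupancy class, the 3 highest LXR and P300 scores, the 3 highest-scoring distal windows with all 3 sites and no tag, and the highest window of 20 fixed genes, with 1 window per gene and without predicted genes. Of these genes Cd79a had no window and Alb 1. Windows named otherwise were chosen after their values were seen. Windows and lists were chosen with earlier results of these data known.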

Additional observations from a re-analysis of the deposited data

Results flagged for a closer look

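An LXR site went with a lower H3K27ac level at promoters and a higher one at distal windows, in both NASH libraries, where P300 was also present. Beside P300 alone the gap of windows with and without LXR was −0.24 and −0.20 at promoter windows and 0.16 and 0.17 at distal windows in NASH replicates 1 and 2. Beside ATF3 and P300 it was −0.25 and −0.21 at promoter windows and 0.42 and 0.29 at distal windows. The promoter windows compared also differed in open-chromatin score and in distance to the start, as given above. The difference between promoter and distal windows was not tested.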

How the results depend on the processing

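Gaps are listed as promoter LXR, ATF3, P300 and then distal LXR, ATF3, P300. Signs of the 6 gaps held under every alternative except the limit of 10 tags, which gave −0.24, 0.048 and −0.18 at promoters and −0.047, −0.042 and 0.044 at distal windows. A pseudocount of 5 gave 0.23, 0.32, 0.37, 0.49, 0.47 and 0.59. Windows on the 20-week open-chromatin list, an alternative chosen after seeing the data, gave 0.19, 0.38, 0.37, 1.01, 0.66 and 1.09. A promoter limit of 500 bp gave 0.46 for promoter ATF3 and 0.95, 0.77 and 1.21 at distal windows. Sites at the highest IDR score gave 0.59 for promoter P300 and 1.08 and 1.29 for distal LXR and P300. For distal LXR and P300, values per 200 bp gave 1.07 and 1.19 and an overlap of 50% gave 1.02 and 1.23. Leaving out 1 NASH library gave 0.435 to 0.476 for promoter ATF3, and 1.01 to 1.02, 0.74 to 0.89 and 1.15 to 1.16 for distal LXR, ATF3 and P300.

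Score correlations, as promoter LXR and P300 and then distal LXR and P300, stayed positive. They were 0.044, 0.13, 0.11 and 0.17 with at least 10 tags, 0.10, 0.19, 0.26 and 0.34 per 200 bp, 0.098, 0.17, 0.22 and 0.29 at the highest IDR score, and 0.12, 0.24, 0.24 and 0.32 with a promoter limit of 500 bp. An overlap of 50% gave 0.12, 0.23 and, for distal P300, 0.36. The 20-week list gave 0.12 and 0.22 at promoters. Leaving out 1 NASH library gave 0.104 to 0.110, 0.192 to 0.199, 0.252 to 0.256 and 0.330 to 0.336.

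The NASH minus control difference of gaps at NASH sites changed sign for distal LXR to 0.13 (10 tags), 0.024 (50% overlap), 0.26 (500 bp) and 0.0014 (without control replicate 2, against −0.066 without control replicate 1), for distal P300 to 0.21 (10 tags) and 0.018 (highest IDR score), and for promoter P300 to −0.058 (20-week list) and −0.035 (without control replicate 1). With each diet's own sites it changed sign for promoter P300 to 0.012 (highest IDR score) and distal ATF3 to 0.096 (500 bp).

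Windows raised and lowered numbered 1357 and 1130 with edgeR, 428 and 206 with DESeq2 and 1191 and 902 with TMM factors. Without a filter on low values limma called 0 and 0, with 10809 windows at an unadjusted p under 0.05. Leaving out 1 library gave 176 to 841 raised and 684 to 2211 lowered, the fewest of both without NASH replicate 2, while 195 were raised without NASH replicate 1 and 850 lowered without control replicate 1. With the replicate number as a block there were 1053 and 2837, and Trem2 then passed (limma adjusted p = 0.0334), as it did without control replicate 2 (0.0103). Deviations of same-numbered libraries had a correlation of 0.04. Counting error is large at this depth, so that value cannot decide whether the numbers pair the libraries, and the labels do not say. Among fixed loci that passed no test, the log2 change (NASH over control, before the median was subtracted) changed sign at Scd2 to 0.22 (TMM) and 0.21 (without NASH replicate 2, against −0.29 without NASH replicate 1), at Slc40a1 to 0.0056 (TMM) and 0.0099 (without NASH replicate 2, against −0.53 without NASH replicate 1), at Srebf1 to −0.0040 (without NASH replicate 2) and at Cd5l to −0.05 (without NASH replicate 1) and −0.12 (without control replicate 2). The cause of these changes was not tested. Distal medians of 1 to 5 normalised tags rest on 2 to 10 tags a library, so orders among them that differ by a single tag were not resolvable at this depth.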
